A study of Mus musculus with 4 samples.

Results

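Proneural basic helix-loop-helix (bHLH) transcription factors were followed in brain and spine of CD-1 mouse embryos with neural tube defects (NTD) and of control embryos, all collected at embryonic day 9.5 (E9.5). The 7 genes Atoh1, Neurog1, Neurog2, Neurod1, Neurod4, Nhlh1 and Nhlh2 were chosen by name among the 28765 genes of the deposited expression table, and all 7 were found by matching Ensembl identifiers to mouse symbols. The table holds 4 RNA-seq libraries, 1 each of NTD brain, control brain, NTD spine and control spine. The NTD embryos came from CD-1 parents kept for over 8 weeks on a diet low in folate. Their mothers were injected on E7.5 with 1.5 mg/kg of methotrexate (MTX), an inhibitor of folate metabolism, and embryos that showed a defect were collected. The labels carry the same protocol text for the control libraries, so whether control mothers received the diet or any injection is not known. How many embryos went into a library, and whether a brain and a spine library came from the same embryos, is not stated in the labels.

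Proneural bHLH factors bind DNA as dimers with broadly expressed E proteins and switch dividing neuroepithelial cells to a neuronal fate. They act in sequence: Atoh1 and the neurogenins Neurog1 and Neurog2 are expressed in progenitors and in cells about to leave the cell cycle, and Neurod1, Neurod4, Nhlh1 and Nhlh2 follow in differentiating neurons. They also induce Notch ligands, which raise Hes repressors in the neighbouring cells, and Hes and Id proteins oppose their action. At the stage of neural tube closure the first neurons of the brain, spinal cord and cranial ganglia are being born.

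Expression is given in FPKM, in which reads are divided by the length of the gene and by the size of the library. Library totals recovered from the FPKM lay between 16272101 and 16911677 reads. Genes whose mean over the 4 libraries reached 1 FPKM were compared, 12940 in all, and the 7 proneural genes were among them. A fold is the ratio of reads per library total, with a 95% counting interval that covers counting error only and holds no variation between embryos. Each group is a single library, so no difference has a replicate check and no p-value is given. Treatment coincides with any batch of treatment and cannot be told apart from it. The brain and spine labels held in the region genes: control brain exceeded control spine at least 2-fold in all 6 brain region genes, and lay at least 2-fold below it in all 8 trunk Hox genes.

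All 7 proneural genes were lower in NTD than in control tissue, in brain and in spine; 56.4% of all genes compared were lower in NTD brain, 58% in NTD spine and 41.1% in both. Summed over the 7 genes, the level was 24.5 FPKM in NTD brain against 45.8 FPKM in control brain, or 53.4% of control, and 19.0 FPKM in NTD spine against 38.5 FPKM in control spine, or 49.5% of control. The median log2 ratio of (FPKM + 1) over the 7 genes was -0.76 in brain and -0.90 in spine, beside -0.032 and -0.038 over all genes compared. In these whole-tissue libraries, fewer cells that express a gene and less RNA per cell cannot be told apart.

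On the scale of FPKM + 1, 1 of the 7 genes was at least 2-fold lower in NTD brain, where 0.781% of all genes compared were, and 3 of 7 were at least 2-fold lower in NTD spine, where 0.68% of all genes were. The 3 genes in spine were Atoh1, Neurog1 and Nhlh1. Unless reads per library total are named, a gene called past 2-fold between NTD and control is so on this scale, which makes the difference of a gene at low FPKM smaller than its fold in reads per library total. By that fold Nhlh2 was also past 2-fold, in both tissues. Atoh1 passed in both tissues, as did 0.155% of all genes. Among the 4992 protein-coding genes with a mean between those of the lowest and highest proneural gene, 1.17 to 7.31 FPKM, these shares were 0.14% in brain, 0.341% in spine and 0.0401% in both. After adjustment of the log2 ratios for the GC content and length of genes, Atoh1 stayed past 2-fold in both tissues, at -1.17 in brain and only just in spine, at -1.0, while Neurog1 at -0.84 and Nhlh1 at -0.99 in spine did not. With a pseudocount of 5 FPKM no proneural gene passed in either tissue. At 1.5-fold, 6 of the 7 genes passed in each tissue, against 2.56% of all genes in brain, 2.93% in spine and 0.981% in both, and the gene left out was Neurod4 in each tissue. A counting interval wholly below a fold of 1 was found for all 7 genes in each tissue. That is a weak criterion at this depth, since 25.7% of genes with recovered reads met it in brain, 26.6% in spine and 13.8% in both.

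**Figure D1:**
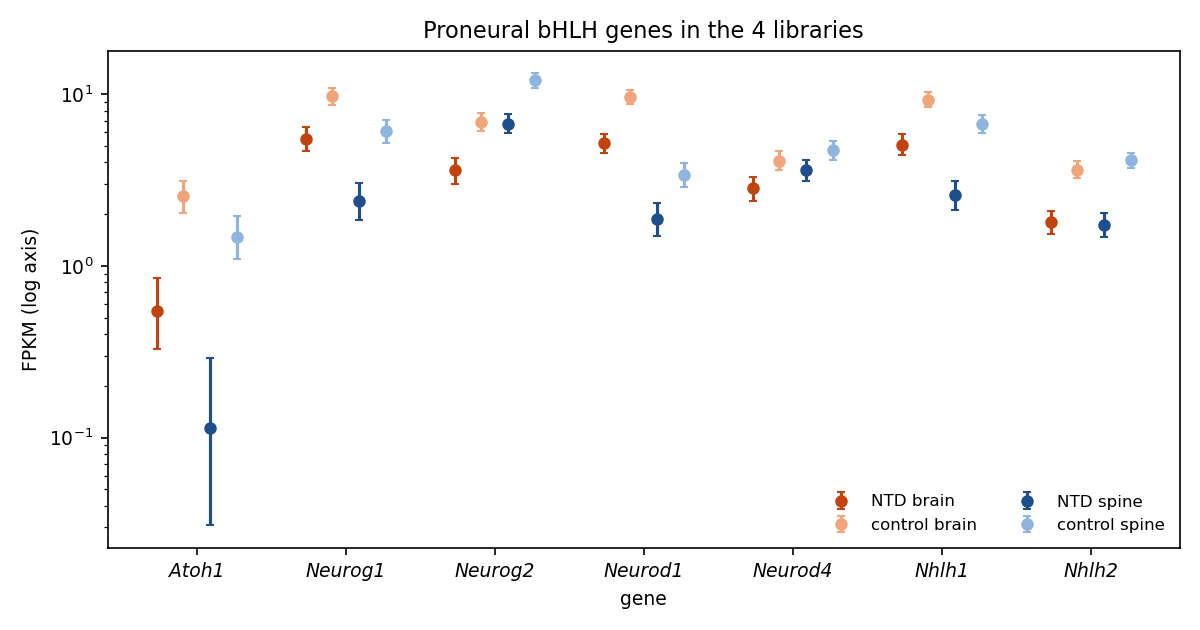
Level of each proneural bHLH gene in FPKM (log axis) in NTD brain, control brain, NTD spine and control spine, 1 library each, with bars for the 95% counting interval. For every gene the NTD point lies below the control point of the same tissue, by most for Atoh1 (0.114 FPKM in NTD spine, 1.48 FPKM in control spine) and by least for Neurod4 (3.60 FPKM in NTD spine, 4.70 FPKM in control spine).

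Atoh1 (ENSMUSG00000073043, chromosome 6, 64729125 to 64731245, plus strand, GRCm38) specifies the most dorsal neural progenitors, beside the roof plate, which give rise to dorsal commissural interneurons and to rhombic lip derivatives of the hindbrain. It was the lowest of the 7 genes in every library. It stood at 0.544 FPKM in NTD brain and 2.54 FPKM in control brain, from 19 and 91 reads. In spine it stood at 0.114 FPKM in NTD and 1.48 FPKM in control, from 4 and 51 reads. Atoh1 was thus 4.66-fold lower in NTD brain (interval 2.82 to 8.10) and 13.0-fold lower in NTD spine (4.78 to 49.6), and the width of the spine interval comes from its 4 reads. Its log2 ratio of (FPKM + 1), -1.20 in brain and -1.15 in spine, placed it at rank 6 and rank 19 from the lowest among the 11199 protein-coding genes compared.

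The 250 bases before the RefSeq start site of Atoh1 are shown as the promoter of the gene with the largest difference. No E-box, the bHLH recognition sequence CANNTG (N for any base), was found in this window on either strand, while 66.2% of the 32851 promoter windows of the same length in the RefSeq table hold at least 1.
Atoh1 promoter, GRCm38.p6, chr6:64728875-64729124, plus strand: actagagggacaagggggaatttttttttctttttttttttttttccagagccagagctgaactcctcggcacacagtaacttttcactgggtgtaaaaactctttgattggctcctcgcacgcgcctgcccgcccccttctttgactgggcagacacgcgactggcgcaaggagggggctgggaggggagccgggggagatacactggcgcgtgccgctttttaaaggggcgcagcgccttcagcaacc

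Neurog1 (ENSMUSG00000048904, chromosome 13, 56250478 to 56252163, minus strand) and Neurog2 (ENSMUSG00000027967, chromosome 3, 127633135 to 127635631, plus strand) encode the neurogenins. Neurog1 is needed for neurons of the proximal cranial ganglia and acts in the neural tube as well, and Neurog2 for epibranchial placode neurons and for motor neurons and interneurons of the spinal cord. Neurog1 stood at 5.47 FPKM in NTD brain against 9.71 FPKM in control brain, from 152 and 277 reads, and at 2.39 FPKM in NTD spine against 6.09 FPKM in control spine, from 67 and 167 reads. Its NTD level was 1.77-fold lower in brain (1.45 to 2.18) and 2.54-fold lower in spine (1.90 to 3.43). Neurog2 stood at 3.60 FPKM in NTD brain against 6.90 FPKM in control brain, from 132 and 260 reads, and at 6.73 FPKM in NTD spine against 12 FPKM in control spine, from 249 and 435 reads. This made it 1.92-fold lower in brain (1.55 to 2.38) and 1.78-fold lower in spine (1.52 to 2.09), close to the same fold in each tissue.

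The order of the neurogenins depended on the tissue and not on the group. Neurog1 was above Neurog2 in brain, with a ratio of their FPKM of 1.52 in NTD brain (1.20 to 1.94) and 1.41 in control brain (1.18 to 1.67). In spine it was below Neurog2, with a ratio of 0.355 in NTD spine (0.267 to 0.467) and 0.507 in control spine (0.422 to 0.608). The intervals of NTD and control overlapped in each tissue, but overlap of separate intervals does not show that the ratio was the same in both groups. The change of this ratio between the groups was not tested.

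Neurod1 (ENSMUSG00000034701, chromosome 2, 79452521 to 79456751, minus strand) acts downstream of the neurogenins in sensory ganglia and differentiating neurons, and Neurod4 (ENSMUSG00000048015, chromosome 10, 130268152 to 130280240, minus strand), once called Math3, promotes neuronal over glial fate together with other proneural factors. Neurod1 stood at 5.16 FPKM in NTD brain against 9.64 FPKM in control brain, from 232 and 445 reads, and at 1.88 FPKM in NTD spine against 3.38 FPKM in control spine, from 85 and 150 reads. It was 1.87-fold lower in NTD brain (1.59 to 2.20) and 1.80-fold lower in NTD spine (1.37 to 2.38). Neurod1 lies wholly within the annotated span of Cerkl on the same strand, which stood at 0.0460 FPKM in NTD brain, 0.0895 FPKM in control brain, 0.0342 FPKM in NTD spine and 0.0698 FPKM in control spine. It also overlaps the noncoding gene Gm26755 on the opposite strand, and since the strand setting of the counting is not given, reads of that transcript and of Neurod1 cannot be told apart.

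Neurod4 had the smallest difference of the 7 genes in each tissue. It stood at 2.83 FPKM in NTD brain against 4.10 FPKM in control brain, from 156 and 232 reads, and at 3.60 FPKM in NTD spine against 4.70 FPKM in control spine, from 200 and 256 reads. The folds were 1.45-fold lower in brain (1.18 to 1.79) and 1.31-fold lower in spine (1.08 to 1.58). Neurod4 ranked 402 from the lowest among the 11199 protein-coding genes in brain and 1079 in spine, where the other 6 genes ranked no further than 50 in brain and 162 in spine. The ratio of Neurod1 to Neurod4 was 1.82 in NTD brain (1.48 to 2.25) against 2.35 in control brain (2.0 to 2.77), and 0.521 in NTD spine (0.399 to 0.675) against 0.718 in control spine (0.583 to 0.882), with intervals that overlapped in each tissue. Such overlap does not show that the ratio was the same in both groups, and its change was not tested.

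**Figure D2:**
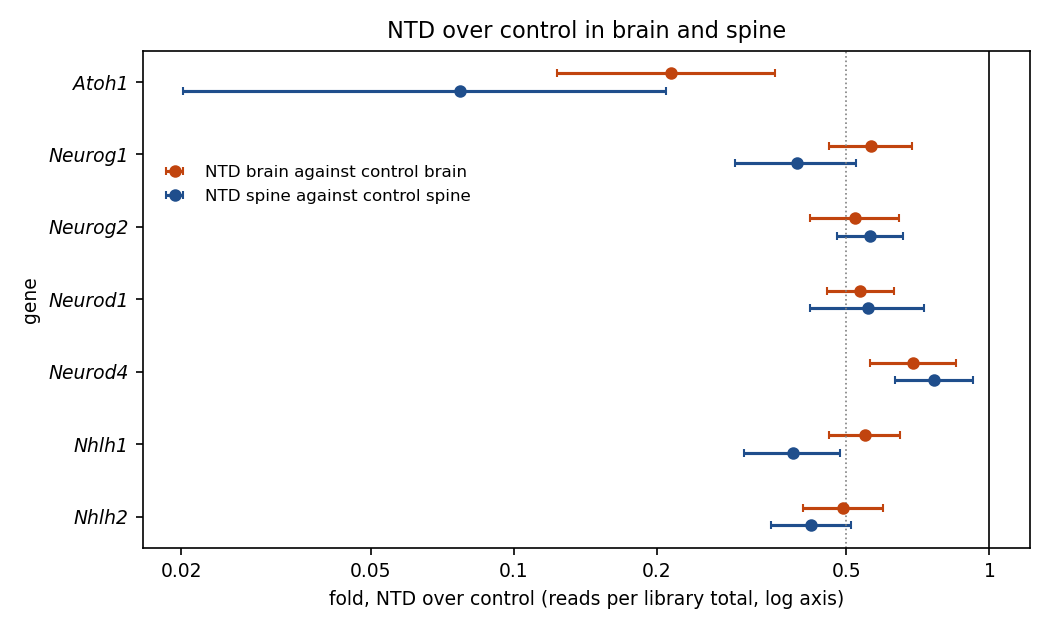
Fold of NTD over control (log axis, reads per library total) for each proneural bHLH gene in brain and in spine, with bars for the 95% counting interval, a solid line at 1 and a dotted line at 0.5. All intervals lie below 1, and Atoh1 is the only gene with both intervals wholly below 0.5 (0.123 to 0.354 in brain, 0.0202 to 0.209 in spine).

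Nhlh1 (ENSMUSG00000051251, chromosome 1, 172052292 to 172057573, minus strand) and Nhlh2 (ENSMUSG00000048540, chromosome 3, 102010076 to 102015492, plus strand) encode a pair of small bHLH proteins, also known as NSCL1 and NSCL2, of newly born neurons. Nhlh1 stood at 5.08 FPKM in NTD brain against 9.29 FPKM in control brain, from 206 and 387 reads, and at 2.59 FPKM in NTD spine against 6.71 FPKM in control spine, from 106 and 269 reads. It was 1.83-fold lower in NTD brain (1.54 to 2.18) and 2.59-fold lower in NTD spine (2.06 to 3.27). Nhlh2 stood at 1.79 FPKM in NTD brain against 3.63 FPKM in control brain, from 160 and 333 reads, and at 1.73 FPKM in NTD spine against 4.11 FPKM in control spine, from 156 and 362 reads. It was 2.03-fold lower in NTD brain (1.67 to 2.46) and 2.37-fold lower in NTD spine (1.96 to 2.88). Within each tissue the ratio of Nhlh1 to Nhlh2 was of like size in both groups, at 2.83 in NTD brain (2.29 to 3.50) against 2.55 in control brain (2.20 to 2.97) and at 1.49 in NTD spine (1.16 to 1.92) against 1.63 in control spine (1.39 to 1.92).

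The promoters of Nhlh1 and Nhlh2 are shown because, of the 7 genes, only their 250-base windows held the E-box variant CAGATG, which 14.4% of all such windows hold on either strand. Capitals mark every E-box, written 5′ to 3′ on the strand of the gene, and the Nhlh2 window holds a second one, CAACTG.
Nhlh1 promoter, GRCm38.p6, chr1:172057597-172057846, minus strand: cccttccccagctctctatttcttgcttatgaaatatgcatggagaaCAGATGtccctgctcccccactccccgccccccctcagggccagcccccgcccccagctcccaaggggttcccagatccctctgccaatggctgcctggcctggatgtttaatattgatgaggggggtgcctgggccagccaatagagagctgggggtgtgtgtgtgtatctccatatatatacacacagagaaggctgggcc
Nhlh2 promoter, GRCm38.p6, chr3:102009895-102010144, plus strand: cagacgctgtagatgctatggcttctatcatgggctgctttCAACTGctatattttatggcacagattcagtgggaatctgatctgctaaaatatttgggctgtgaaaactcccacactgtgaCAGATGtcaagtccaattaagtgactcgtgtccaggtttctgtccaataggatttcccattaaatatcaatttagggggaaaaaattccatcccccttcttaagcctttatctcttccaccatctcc

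The longest run of letters shared by these windows, on either strand, was ACAGATGTC, which spans the CAGATG, begins 204 bases before the start site in Nhlh1 and 128 bases before it in Nhlh2, and occurs in 64 of the 32851 windows (0.195%). This run was picked by comparing the same windows, so its share among other promoters is a description. Neurod1 held a single E-box, CATATG, at 242 bases before its start site, and the windows of Neurog1, Neurog2 and both annotated starts of Neurod4 held none. The E-box variant CAGCTG, found in 13.0% of all windows, was in none of the 8 windows of the 7 genes. Distances are counted from RefSeq start sites, which can differ from the starts of the gene spans given above. The windows of Nhlh2 and Neurod1, for example, reach into those spans. These matches are of letters only, and nothing in these data measures binding.

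The folds were set against each other between the tissues. For Nhlh1 the fold of NTD over control was 0.547 in brain and 0.386 in spine, a ratio of 1.42 between the tissues with a counting interval of 1.06 to 1.90, and for Neurog1 it was 0.563 and 0.393, a ratio of 1.43 with an interval of 1.001 to 2.06. For the other 5 genes the interval of this ratio held 1: it was 0.857 to 11.8 for Atoh1, 0.709 to 1.22 for Neurog2, 0.700 to 1.33 for Neurod1, 0.679 to 1.20 for Neurod4 and 0.887 to 1.54 for Nhlh2. These intervals hold no variation between embryos, so whether the NTD difference varies with tissue is not shown for any of the 7 genes.

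Between the control tissues, Neurod1 was the 1 gene of the 7 past 2-fold, higher in control brain, where 0.981% of all genes compared were past 2-fold upward and 2.38% downward. It was 2.85-fold higher in control brain than in control spine (2.37 to 3.46), and its log2 ratio was 1.28 with a pseudocount of 1 FPKM and 0.81 with a pseudocount of 5 FPKM. Atoh1 (1.72-fold, 1.21 to 2.47), Neurog1 (1.6-fold, 1.31 to 1.95) and Nhlh1 (1.38-fold, 1.18 to 1.62) were also higher in control brain, and Neurog2 was 1.74-fold lower (1.49 to 2.04). Neurod4 was 1.15-fold lower in control brain (0.956 to 1.38) and Nhlh2 1.13-fold lower (0.971 to 1.32), and both of these intervals held 1.

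The NTD tissues stood in a like order. Neurod1 was 2.75-fold higher in NTD brain than in NTD spine (2.14 to 3.57) and was again the 1 gene past 2-fold on the scale of FPKM + 1, at 1.10 (0.98 after the adjustment for GC content and length), with 1.02% of all genes past it upward and 2.13% downward. Neurog1 was 2.29-fold higher (1.71 to 3.10), Nhlh1 1.96-fold higher (1.54 to 2.50) and Atoh1 4.79-fold higher (1.59 to 19.4) in NTD brain. Neurog2 was 1.87-fold lower in NTD brain (1.51 to 2.33) and Neurod4 1.27-fold lower (1.03 to 1.58), while the interval of Nhlh2, 0.824 to 1.30, held 1.

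FPKM is a level per length, so the genes can be ordered within a library. In brain the order was the same in both groups, from Neurog1 through Neurod1, Nhlh1, Neurog2, Neurod4 and Nhlh2 to Atoh1. The first 3 did not differ beyond counting error: their intervals were 4.64 to 6.42, 4.52 to 5.87 and 4.41 to 5.82 FPKM in NTD brain and 8.60 to 10.9, 8.77 to 10.6 and 8.38 to 10.3 FPKM in control brain. In spine Neurog2 led and Atoh1 came last in both groups. Neurod4 came next in NTD spine and in control spine after Nhlh1 and Neurog1. Of the summed level, Neurog2 made up 35.4% in NTD spine and 31.2% in control spine, and 14.7% in NTD brain and 15.1% in control brain. The share of Atoh1 was 0.596% in NTD spine against 3.84% in control spine, and 2.22% in NTD brain against 5.54% in control brain.

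The E proteins, the dimer partners of the proneural factors, differed by no more than 1.15-fold between the groups, and none of the 3 was past 2-fold in either tissue. Tcf3 was at 93.7 FPKM in NTD brain against 108 FPKM in control brain, 1.15-fold lower (1.11 to 1.19), and 1.07-fold lower in NTD spine (1.04 to 1.11). Tcf12 had folds of 1.05 in NTD brain (1.01 to 1.09) and 1.12 in NTD spine (1.08 to 1.16), and the intervals of Tcf4 held 1 in both tissues.

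The Id, Hes and Hey genes, which encode repressors of bHLH activity, went both ways. Of 10 genes, 7 were lower in NTD brain and 6 in NTD spine, with medians of -0.24 and -0.15. These counts lie near the share of all genes compared that were lower, 56.4% in NTD brain and 58% in NTD spine. The 1 gene past 2-fold was Hes5, a Notch target of neural progenitors, in spine. Hes5 was 2.75-fold lower in NTD spine (1.92 to 4.0), at 1.90 FPKM against 5.23 FPKM in control spine, and 1.96-fold lower in NTD brain (1.48 to 2.62). Id4 was 1.59-fold lower in NTD brain (1.39 to 1.83) and 1.40-fold lower in NTD spine (1.10 to 1.79). On the other side, Id2 had folds of 1.13 in NTD brain (1.07 to 1.19) and 1.11 in NTD spine (1.05 to 1.17). Hes3 was 1.99-fold higher in NTD spine (1.46 to 2.74), at 3.93 FPKM against 1.98 FPKM in control spine, and 1.15-fold higher in NTD brain with an interval of 0.960 to 1.38.

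Of 12 other neural bHLH genes, 10 were in the table and 5 were compared. All 5 were lower in both NTD tissues, as were 41.1% of all genes compared. The medians were -0.52 in brain and -0.40 in spine, and none was past 2-fold on the scale of FPKM + 1. In reads per library total Tal2 was past it in spine, at 2.84-fold lower (1.51 to 5.67), with 0.284 FPKM in NTD spine against 0.807 FPKM in control spine from 14 and 39 reads, while its interval of folds in brain, 0.768 to 1.01, held 1. Ferd3l was 1.86-fold lower in NTD brain (1.10 to 3.23) and in NTD spine 1.86-fold lower with an interval of 0.847 to 4.29 that held 1. Olig3, of dorsal neural progenitors, stood at 5.39 FPKM in NTD brain against 8.73 FPKM in control brain, 1.62-fold lower (1.34 to 1.96), and was 1.37-fold lower in NTD spine (1.15 to 1.63). Olig2, of motor neuron and oligodendrocyte progenitors, was 1.02-fold lower in NTD brain (0.841 to 1.24) and 1.20-fold lower in NTD spine (1.02 to 1.41). Bhlhe22 was 1.97-fold lower in NTD brain (1.36 to 2.90) and 1.13-fold lower in NTD spine (0.795 to 1.62).

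Genes that proneural factors are known to induce were lower in 13 of 13 compared members in NTD brain and in 11 of 13 in NTD spine. Of all genes compared, 56.4% were lower in NTD brain and 58% in NTD spine. Counting intervals of the induced genes lay below a fold of 1 for 10 of the 13 in brain and 9 of the 13 in spine. Among all genes with recovered reads, 25.7% met this in brain and 26.6% in spine. The medians of the induced genes were -0.36 and -0.41, and none was past 2-fold on the scale of FPKM + 1. In reads per library total Myt1 was, at 2.28-fold lower in NTD spine (1.70 to 3.09), with 0.561 FPKM in NTD spine against 1.28 FPKM in control spine. Insm1, a zinc finger factor of newly forming neurons, was 1.75-fold lower in NTD brain (1.44 to 2.11) and 1.80-fold lower in NTD spine (1.39 to 2.35). Hes6, which counters Hes repression, was 1.30-fold lower in NTD brain (1.17 to 1.45) and 1.63-fold lower in NTD spine (1.44 to 1.86). The 2 highest means of the brain and spine log2 ratios in this list were those of the Notch ligand gene Dll4, with folds of 0.782 in brain (0.606 to 1.01) and 1.08 in spine (0.859 to 1.35), and Ebf2, with 0.889 in brain (0.782 to 1.01) and 1.03 in spine (0.873 to 1.20).

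A pair of lists was chosen for the place where Atoh1 is expressed. Of the Atoh1 lineage genes 3 of 4 were compared and all 3 were lower in both NTD tissues (medians -0.28 in brain and -0.36 in spine). Barhl2, a homeobox gene of these interneurons, was 1.61-fold lower in NTD brain (1.20 to 2.16) and 4.29-fold lower in NTD spine (1.57 to 14.5). The spine fold came from 5 reads in NTD spine and 21 in control spine. Lhx2 and Lhx9 differed less. Lhx2 was 1.23-fold lower in NTD brain and 1.36-fold lower in NTD spine, with both counting intervals below a fold of 1. Lhx9 was 1.34-fold lower in NTD brain, with an interval of 0.919 to 1.96 that held 1. In NTD spine Lhx9 was 1.29-fold lower (1.09 to 1.53). Roof plate genes were lower in 6 of 6 members in NTD brain (median -0.36) and 5 of 6 in NTD spine (median -0.29), with none past 2-fold. Beside these 2 lists, 56.4% of all genes compared were lower in NTD brain, 58% in NTD spine and 41.1% in both. Msx1 was 1.59-fold lower in NTD brain (1.45 to 1.76) and 1.22-fold lower in NTD spine (1.11 to 1.33), and Wnt3a was 1.65-fold lower in NTD brain (1.37 to 1.99) and 1.05-fold lower in NTD spine (0.807 to 1.36). Lmx1a was 1.48-fold lower in NTD spine (1.13 to 1.95) and 1.09-fold lower in NTD brain with an interval of 0.904 to 1.31.

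**Figure D3:**
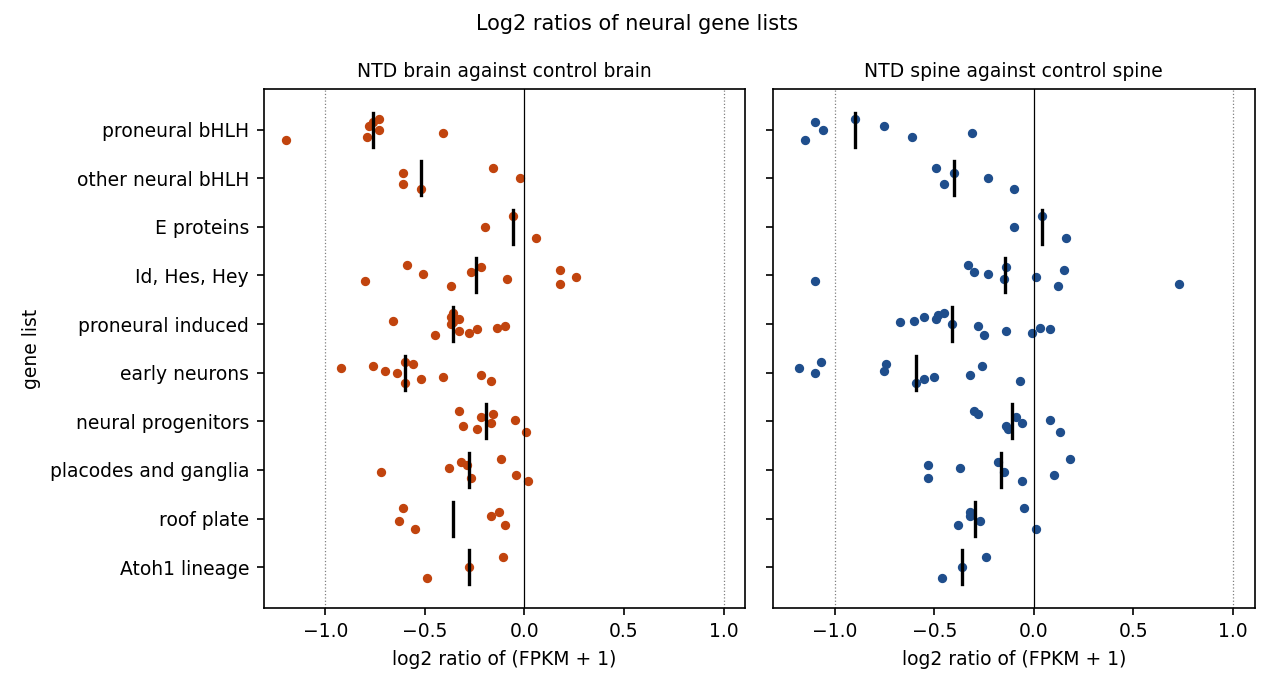
Log2 ratio of (FPKM + 1), NTD over control, for each compared gene of 10 neural lists in brain (left) and spine (right), with a black bar at the list median and dotted lines at 2-fold. The proneural bHLH list has the medians -0.76 and -0.90, the early neuron list -0.60 and -0.59, the neural progenitor list -0.19 and -0.11, and the E proteins -0.06 and 0.04.

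By their medians, markers of neurons moved with the proneural genes and markers of progenitors less so. The 11 early neuron genes compared were all lower in both NTD tissues, with medians of -0.60 in brain and -0.59 in spine, and the 12 listed genes summed to 139 FPKM in NTD brain against 203 FPKM in control brain and to 70.8 FPKM in NTD spine against 123 FPKM in control spine. On the scale of FPKM + 1 none of them was past 2-fold in brain and 3 were in spine, given here with their folds in reads per library total, namely Nefm at 2.58-fold lower (2.29 to 2.91), Ina at 2.61-fold lower (2.13 to 3.23) and Tubb3, a neuronal tubulin, at 2.15-fold lower (1.96 to 2.35). By reads per library total Dcx was past 2-fold in both tissues, at 2.03-fold lower in NTD brain (1.71 to 2.41) and 2.34-fold lower in NTD spine (1.89 to 2.91), Stmn2 in spine at 2.11-fold lower (1.72 to 2.60), and in brain Sncg at 2.20-fold lower (1.26 to 4.0) and Nefm with a fold of 0.499 (0.456 to 0.545). The smallest mean differences in this list were those of Gap43 and Elavl2. Gap43 was 1.17-fold lower in NTD brain (1.07 to 1.28) and 1.26-fold lower in NTD spine (1.13 to 1.40). Elavl2 was 1.15-fold lower in NTD brain (1.03 to 1.28) and 1.07-fold lower in NTD spine (0.917 to 1.25). In spine 9 of the 11 counting intervals lay below a fold of 1, and those of Elavl2 and Sncg held 1. Of 8 progenitor genes, 7 were lower in NTD brain and 6 in NTD spine, with medians of -0.19 and -0.11 and sums of 270 FPKM against 311 FPKM in control brain and 188 FPKM against 205 FPKM in control spine. Placode and sensory ganglion genes, a second site of Neurog1 and Neurod1 expression, were lower in 7 of 8 compared members in NTD brain and 6 of 8 in NTD spine, with medians of -0.28 and -0.17 and sums of 41.8 FPKM against 51.9 FPKM in control brain and 32.1 FPKM against 36.4 FPKM in control spine. No gene of these last 2 lists was past 2-fold between NTD and control on the scale of FPKM + 1. The counts of lower genes stand beside 56.4% of all genes compared in NTD brain, 58% in NTD spine and 41.1% in both. No marker of the 3 lists that is in the table was at 0 in any library. The part of these cell types in the lower proneural levels was not tested.

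Tissue content also differed between the groups. In NTD brain the 8 trunk Hox genes summed to 10.5 FPKM against 0.172 FPKM in control brain, where 4 of them were at 0. As a share of the NTD spine level, their NTD brain levels ran from 4.19% for Hoxa9 to 7.89% for Hoxb9. The 6 heart genes summed to 189 FPKM in NTD brain against 45.1 FPKM in control brain. In spine the 6 brain region genes summed to 3.07 FPKM in NTD spine against 8.15 FPKM in control spine. Otx2, an anterior gene, was in control spine at 8.16% of its control brain level and in NTD spine at 1.59% of its NTD brain level, while Atoh1 was in control spine at 58.2% of its control brain level and in NTD spine at 20.9% of its NTD brain level. Endoderm and yolk sac genes summed to 35.4 FPKM in NTD spine against 117 FPKM in control spine, erythroid genes to 3640 FPKM against 6980 FPKM and heart genes to 446 FPKM against 660 FPKM. The pancreatic endocrine genes, of another tissue that uses Neurod1, summed to 2.58 FPKM in NTD spine against 2.12 FPKM in control spine. In brain they summed to 0 FPKM in NTD brain against 0.158 FPKM in control brain. Ins2 and Iapp, at 0 in control spine, rested on 2 reads and 1 read in NTD spine. None of these genes reached a mean of 1 FPKM, and Ins1 was not in the table. The part of tissue content in the proneural differences was not tested.

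**Figure D4:**
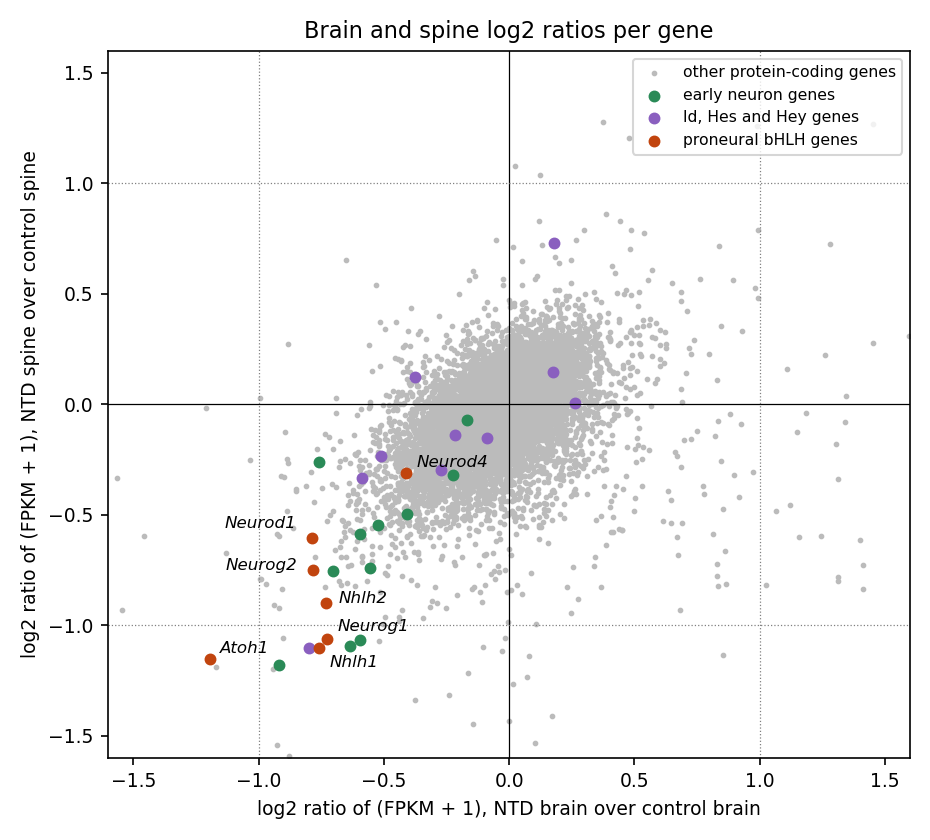
Log2 ratio of (FPKM + 1), NTD over control, in brain (horizontal) and spine (vertical), for the 11179 protein-coding genes within the axes (20 lie outside), with proneural bHLH genes, early neuron genes and Id, Hes and Hey genes in colour and dotted lines at 2-fold. The 7 proneural genes all lie in the lower left part of the plot, with Atoh1 past 2-fold on both axes and Neurod4 closest to the origin of the 7.

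The genes most like each proneural gene were found by the Euclidean distance between log2(FPKM + 1) profiles centred on their own mean over the 4 libraries, among protein-coding genes compared. The neurofilament gene Nefm was among the 3 closest to Atoh1 (distance 0.272), Neurog1 (0.179) and Nhlh1 (0.154). For Atoh1 this likeness holds on the scale of FPKM + 1, which shrinks differences at low FPKM. In reads per library total the NTD folds of Atoh1 were 0.214 in brain and 0.0769 in spine, and those of Nefm 0.499 and 0.387. Hes5 was among the 3 closest to Atoh1 (0.286) and was the closest to Nhlh1 (0.145), and the intermediate filament gene Ina was among the 3 closest to Neurog1 (0.304) and Nhlh1 (0.148). Nhlh1 was itself the second closest to Neurog1 (0.180) and the third closest to Atoh1 (0.325). The closest to Neurod1 were Stmn2 (0.208), Pou3f4 (0.251) and Id4 (0.269). Neurog2 was closest to Ppm1j (0.183), Ass1 (0.185) and Cited4 (0.240), Nhlh2 to Rsrp1 (0.0895), Zfc3h1 (0.153) and Nrgn (0.161), and Neurod4, which had the smallest NTD differences of the proneural genes, to Mmab (0.0312), Acsf2 (0.0385) and Pigt (0.0397). With 4 libraries a small distance is a description of these profiles and no more.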

How the data were processed

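RNA-seq was measured in 4 libraries, grouped by their titles. The authors deposited FPKM for 28765 genes in a single table of 4 columns. HISAT2 2.0.1 and the build mm10 are named in the submitters' processing notes. For the counting program, the annotation and the strand setting, the sources used here give nothing.

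Identifiers were matched to GENCODE M21 (GRCm38): 28698 matched. Multiplied by union exon length, FPKM gave whole reads to within 0.01 reads for 28298 genes (98.6% of those matched), all 7 proneural genes included, and with them the library totals. Log2 ratios of (FPKM + 1) were taken for the 12940 genes whose mean reached 1 FPKM, and calls were made at 2-fold. Folds have exact (Clopper-Pearson) conditional binomial intervals at 95%, and the ratio of folds between tissues has an exact conditional odds ratio interval. Reads are not known to be independent molecules. The steps were tested on simulated reads. Promoter windows are from RefSeq (GRCm38.p6), in which all 7 genes matched.

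The genes, lists and rules were chosen with earlier results of these data known. Per list, up to 4 genes were named by the 2 highest and 2 lowest mean log2 ratios, plus those past 2-fold where 5 or fewer, and 3 most alike genes per proneural gene. Some genes given by the rule are not described. Compared genes of the neural lists past 2-fold only in reads per library total were named after their values were seen. A pair of genes of the lists is not reported here and was left out of the lists' counts. Alternatives were a pseudocount of 0.1 or 5, a filter of 5 FPKM or none, 2 rescalings, a 1.5-fold call, a call on the counting interval, and adjustment of log2 ratios by the median of a grid (10 by 10) of like GC content and length. Python 3.11.15, scipy 1.17.1 and pandas 2.3.3 were used.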

Additional observations from a re-analysis of the deposited data

Results flagged for a closer look

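The 6 heart genes went opposite ways in the tissues: all 6 were higher in NTD brain than in control brain, with a median log2 ratio of (FPKM + 1) of 1.68, and all 6 were lower in NTD spine than in control spine, with a median of -0.56. The difference between the tissues was not tested. No proneural gene and no other gene of the neural lists went opposite ways with both counting intervals away from 1.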

How the results depend on the processing

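No paired analysis was possible because each group holds 1 library and no result comes from a test. All 70 log2 ratios of the 7 proneural genes in NTD against control under another pseudocount, rescaling or adjustment were below 0, and 15 of them lay outside the counting interval of the reported value, all under another pseudocount. The count of 1 past 2-fold in brain became 0 with a pseudocount of 5 and with a filter of 5 FPKM, 6 at 1.5-fold and 7 by the counting interval. The count of 3 in spine became 4 with a pseudocount of 0.1, 0 with a pseudocount of 5, 2 with a filter of 5 FPKM, 6 at 1.5-fold, 7 by the counting interval and 1 with adjustment for GC content and length. The medians were -0.47 in brain and -0.44 in spine with a pseudocount of 5, and -1.20 in spine with a pseudocount of 0.1. Between the control tissues the count of 1 became 0 with a pseudocount of 5, 3 at 1.5-fold and 5 by the counting interval. Between the NTD tissues the count of 1 became 3 with a pseudocount of 0.1, 0 with a pseudocount of 5 and with the GC and length adjustment, 4 at 1.5-fold and 6 by the counting interval, and the median of 0.47 became 0.94, 0.12 and, with a filter of 5 FPKM, 0.85. A filter of 5 FPKM leaves out Atoh1, Neurod4 and Nhlh2, and a larger pseudocount shrinks the ratios of genes at low FPKM by construction; other causes were not tested. Depth limits Atoh1 most, with 4 reads in NTD spine.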
